A study of Oryctolagus cuniculus with 4 samples.

Results

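LOC100008770, the gene of calcitonin and of calcitonin gene-related peptide (CGRP), and TAC1, the gene of substance P and neurokinin A, are peptide precursor genes that were followed through 4 arrays of rabbit blastocysts. Both genes were selected on their ratio of parthenotes to in vivo fertilised embryos in these same arrays, so the difference between the groups is described here and not tested. All their probes were taken. They are 2 of the 10317 genes that could be named on the array, and 13 of its 43603 probes. Each array carried RNA of a pool of parthenote blastocysts in Cy3 (green) and of a pool of untreated, in vivo fertilised control blastocysts in Cy5 (red), all from the New Zealand White rabbit and aged 6 days, with 150 ng of total RNA labelled per pool. Oocytes became parthenotes by DC electrical pulses followed by cycloheximide and 6-DMAP, and developed in the reproductive tract of recipient does, whereas the fertilised embryos developed in the does that had been inseminated. Both genome copies of a parthenote are maternal. No array had the dyes exchanged, so dye and group cannot be told apart for any single probe.

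Calcitonin and CGRP arise from the same gene by alternative splicing. Calcitonin is the hormone of the thyroid C cells that lowers blood calcium, and CGRP is a vasodilator released by sensory nerves. Preprotachykinin, the product of TAC1, is cut into substance P and neurokinin A, which act on smooth muscle, glands and nerve cells. Both precursors enter the secretory pathway, are cleaved by prohormone convertases, and yield peptides that bind receptors coupled to G proteins, so a cell must make the processing enzymes to secrete them and another must make the receptor to respond. CGRP is also known as a vasodilator of the pregnant uterus.

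The probes of each gene were far from independent. The 6 probes of LOC100008770 read only 2 places of its transcript, because 5 of them start at bases 686 to 690 and are shifted from each other by single bases, at chr1:156793549-156793612 on the plus strand. The array file does not name the genome build of its positions. These 5 probes share 56 bases, and the first 30 of these are shown, since almost all of the evidence for the gene rests on this place.
LOC100008770, bases 690 to 719: aaatctgatggcatctctcactggcttatc
The other probe, A_04_P004902, starts at base 370, at chr1:156792709-156792768, and is shown whole because it tells which product is read.
A_04_P004902: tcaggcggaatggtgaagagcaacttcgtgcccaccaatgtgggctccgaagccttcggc
Read in its first frame, this stretch encodes the carboxy-terminal part of CGRP and not of calcitonin. The array's description of the transcript is a cDNA clone from trigeminal nerve, and the study's own primer list named the same gene CGRP. Transcript and probe are thus those of the CGRP form, which the name calcitonin does not tell, and the values below say nothing of the calcitonin form.

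The 7 probes of TAC1 read 3 places. A set of 5 starts at bases 290 to 294, again shifted by single bases, and 56 bases common to all of them are in capitals in the first and the last probe of the set.
A_04_P004755: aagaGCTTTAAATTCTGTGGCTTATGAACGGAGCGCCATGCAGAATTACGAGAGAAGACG
A_04_P004751: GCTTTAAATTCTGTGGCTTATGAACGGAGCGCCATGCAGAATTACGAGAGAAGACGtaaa
They encode the carboxy-terminal flanking peptide of preprotachykinin. Each of these probes of 60 bases spans 2998 bases of chromosome 10 (chr10:31655168-31658165 for the first, minus strand), so that they cross an intron. The remaining probes, A_04_P000537 and A_04_P000536, start at bases 756 and 796, at chr10:31654706-31654765 and chr10:31654666-31654725, and overlap by the 20 bases shown here.
TAC1, bases 796 to 815: agagatgttttacaagtttt

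Before the values, the arrays themselves were compared. Over the 24136 probes that were well above background in both channels of all 4 arrays, the log2 ratios of parthenote over fertilised correlated between array 1 and the other arrays with r of 0.67, 0.671 and 0.725, and among arrays 2, 3 and 4 with r of 0.818, 0.854 and 0.866. Array 1 thus stood apart, and the values of both genes are given with and without it. With limma and Benjamini-Hochberg adjustment over all 43595 probes tested, 20.6% were called, 11.1% lower and 9.53% higher in parthenotes, and in 11.8% of probes every parthenote channel was below every fertilised channel.

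LOC100008770 was bright in the fertilised embryos and several times dimmer in the parthenotes. Its brightest probe, A_04_P013846, gave processed signals of 1022, 340, 294 and 412 in the parthenote pools of arrays 1 to 4, and of 3960, 2732, 2730 and 5051 in the fertilised pools. The groups did not overlap, the lowest fertilised pool being 2.67-fold above the highest parthenote pool, and the parthenote pool of array 1 lay far above the other parthenote pools. Fertilised embryos thus exceeded parthenotes by 3.88-fold on array 1, 8.04-fold on array 2, 9.27-fold on array 3 and 12.3-fold on array 4. The mean log2 ratio of parthenote over fertilised was -2.95 ± 0.71 (SD, n = 4 arrays), or 7.71-fold, and it was -3.28 without array 1. By real-time PCR, which uses neither Cy3 nor Cy5, the study also reported this gene lower in parthenotes. The pools tested there included those of the arrays, and the study's fold changes differed between PCR and array. In this bulk RNA, fewer cells that use a gene and less of its RNA per cell cannot be told apart.

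The pools of a group differed among themselves for this gene. Processed signals of A_04_P013846 varied 3.47-fold among the parthenote pools and 1.85-fold among the fertilised pools, with SDs of 0.81 and 0.44 on the log2 scale. The range of the parthenotes was set by array 1, and that of the fertilised embryos by arrays 1 and 4, which were higher than arrays 2 and 3. Uncorrected spot signals showed the same extremes among the parthenotes. The parthenote spot of array 1 read 939.0 over a local background of 35.5 and that of array 3 read 293.6 over 39.0, whereas the fertilised spots ran from 5249.7 over 51.0 on array 2 to 10448.6 over 52.0 on array 4. All 24 spots of the gene were well above background in both channels, and no spot was marked as an outlier or saturated.

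The probes of LOC100008770 gave nearly the same ratio wherever they shared bases. The 5 overlapping probes had mean log2 ratios between -3.01 and -2.95, and on a given array they spread over only 0.04 to 0.12. Such closeness shows how well the spots repeat the same place and does not amount to 5 measurements of the gene. The CGRP-coding probe A_04_P004902 gave the independent reading. Its processed signals were 833, 252, 222 and 342 in the parthenotes of arrays 1 to 4 and 2547, 1618, 1648 and 3131 in the fertilised embryos, again with array 1 highest among the parthenotes and with no overlap. Its mean log2 ratio was -2.60 ± 0.69 (SD, n = 4), or 6.05-fold. The overlapping probes lay below it on every array, by 0.32, 0.36, 0.37 and 0.45 on the log2 scale (mean difference -0.37 ± 0.06, SD, n = 4), so that both places kept the order of the arrays and differed by a nearly constant amount.

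**Figure D1:**
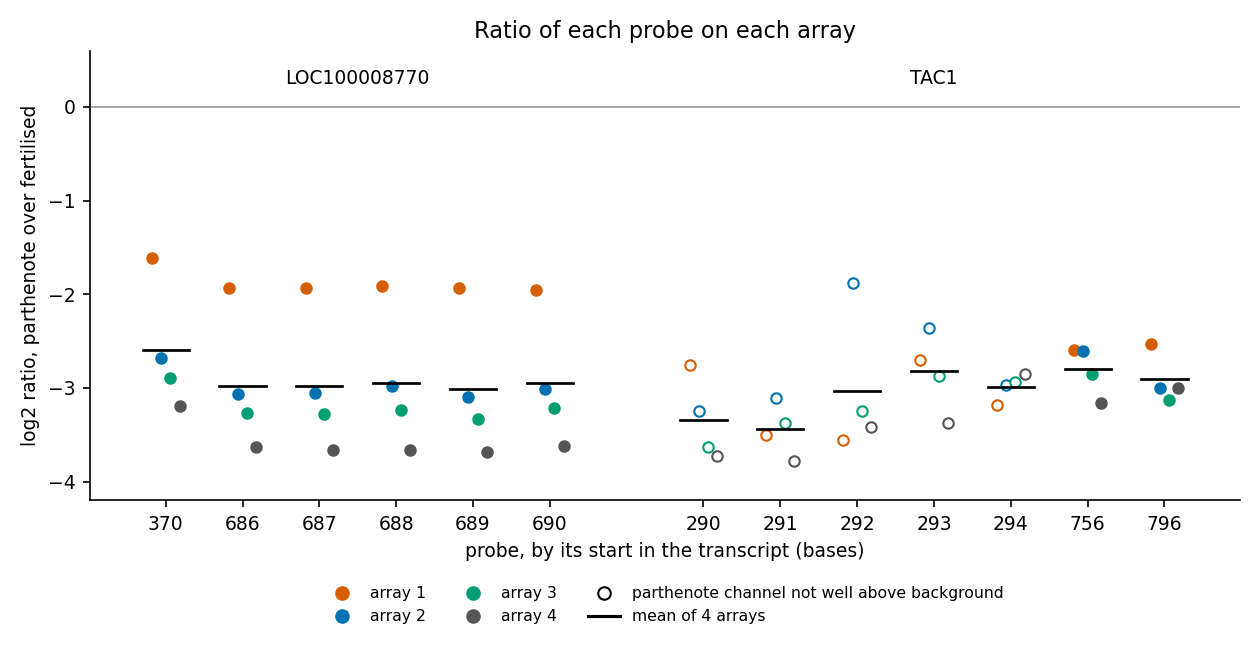
Log2 ratio of parthenote over fertilised (vertical axis) for each of the 6 probes of LOC100008770 and the 7 probes of TAC1, placed by the start of the probe in its transcript in bases; points are arrays, black lines the means of the 4 arrays, and open points probes whose parthenote channel was not well above background on any array. All points lie below 0, array 1 is the least negative for every probe of LOC100008770, and on a given array the TAC1 probes that start at bases 290 to 294 lie 0.76 to 1.37 apart, against 0.04 to 0.12 for the overlapping probes of LOC100008770.

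The CGRP-like paralogue next to it was not well above background in any channel by the scanner software's test. LOC100008771, described on the array as a calcitonin gene-related peptide, lies on the opposite strand of chromosome 1 and has 2 probes. Their uncorrected spot signals were 45.7 to 66.5 in the parthenotes and 62.5 to 88.6 in the fertilised embryos, where the 153 negative control spots of an array had 5th to 95th percentiles within 43.7 to 56.0 and 54.4 to 76.6. The highest of these values, 66.5 and 88.6, were those of A_04_P013851 on array 4, above that array's 95th percentiles of 53.7 and 76.6. The first of them, A_04_P013852, resembles the 3′ probes of LOC100008770. It matched A_04_P013850 at 33 of 43 aligned bases (76.7%), with a longest identical run of 8 bases, and stayed dim on the same arrays on which A_04_P013850 had uncorrected signals of 281.2 to 914.4 in Cy3 and of 5006.1 to 10542.9 in Cy5.

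TAC1 was dim in the parthenotes and moderately bright in the fertilised embryos, as read by 2 probes near its 3′ end. The brightest probe, A_04_P000537, gave processed signals of 64.3, 63.1, 55.4 and 47.0 in the parthenotes of arrays 1 to 4 and of 390, 386, 398 and 419 in the fertilised embryos. The groups did not overlap, the lowest fertilised pool being 6.0-fold above the highest parthenote pool, and no pool stood apart in this probe. Fertilised embryos exceeded parthenotes by 6.06-fold, 6.12-fold, 7.19-fold and 8.93-fold on arrays 1 to 4. The mean log2 ratio was -2.80 ± 0.26 (SD, n = 4), or 6.98-fold, and it was -2.87 without array 1. Signals varied 1.37-fold among parthenote pools and 1.09-fold among fertilised pools. The size of this difference changed with the processing. It was -1.49 on the log2 scale after normexp correction and loess, -1.87 when local backgrounds had also been repaired, and -1.78 with median centring, settings that add an offset of 50, about the size of the parthenote signal, to both channels.

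The overlapping probe A_04_P000536 read lower signals in both channels with a like ratio. Its processed signals were 47.3, 32.1, 27.0 and 31.7 in the parthenotes and 274, 256, 237 and 253 in the fertilised embryos, without overlap, and the parthenote pool of array 1 was the highest. The mean log2 ratio was -2.91 ± 0.26 (SD, n = 4), and on a given array this probe and A_04_P000537 lay 0.07 to 0.38 apart.

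**Figure D2:**
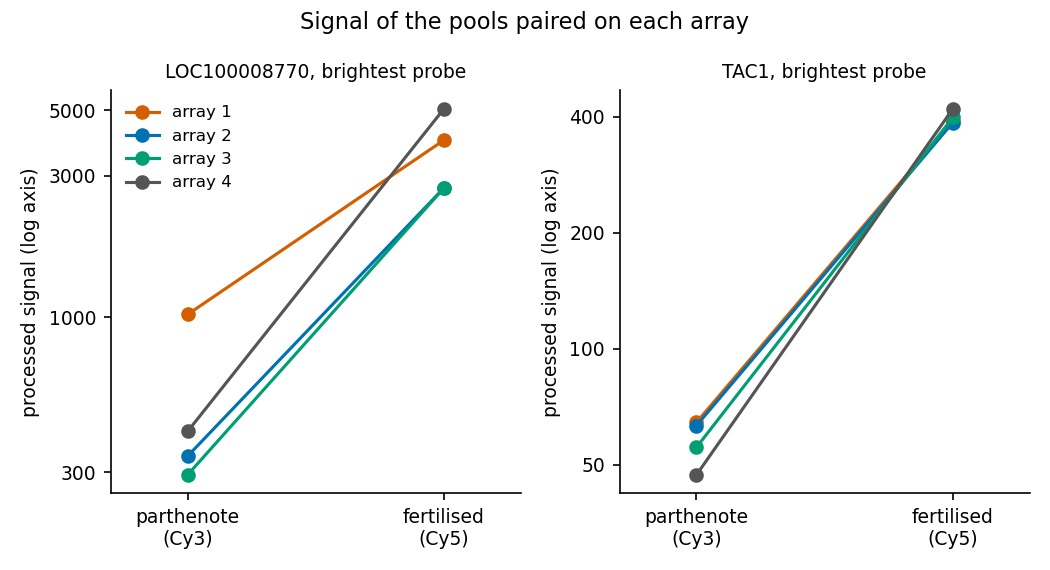
Processed signal (log axis, arbitrary units of the scanner after background subtraction and dye normalisation) of the brightest probe of LOC100008770 and of TAC1 in the parthenote channel and in the fertilised channel, with a line for the pair of pools on each array. For LOC100008770 the parthenote pool of array 1, at 1022, lies above the others at 294 to 412, whereas the 4 lines of TAC1 nearly coincide.

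In the intron-spanning probes TAC1 was measured in the fertilised embryos only. All 20 spots were well above background in Cy5, with processed signals of 27.2 to 47.4, and none of the 20 was in Cy3, where 13 held the scanner software's surrogate for a spot too dim to measure. Uncorrected Cy3 signals were 50.1 to 58.3, where the negative control spots of an array had medians of 48.0 to 49.0 and 95th percentiles of 53.5 to 56.0. Uncorrected Cy5 signals were 116.0 to 153.3, above the controls, whose 95th percentile was at most 76.6. A ratio of such spots depends on the surrogate. The processed signals gave mean ratios of 7.08-fold to 10.9-fold, whereas the bound was that fertilised embryos were at least 1.42-fold to 1.55-fold higher. This bound sets the mean fertilised signal against the higher of the dimmest signal well above background and the probe's own. Both were taken after normexp with an offset of 50, repaired local backgrounds, loess and Aquantile. The offset makes ratios of dim spots smaller, so the size of the bound depends on it. The bound holds for that setting only and is open to dye bias. The 5 probes spread over 0.76 to 1.37 log2 units on a given array, although they differ by single bases.

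**Figure D3:**
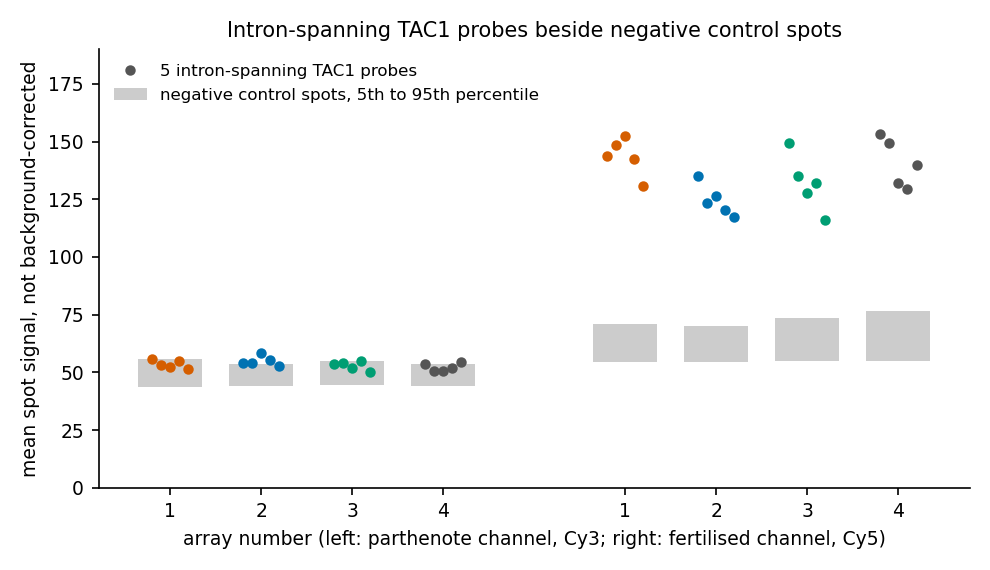
Mean spot signal before background correction (vertical axis) of the 5 intron-spanning TAC1 probes (points, coloured by array) and the 5th to 95th percentile of the 153 negative control spots (grey bars), for each array and channel. The points lie in or just above the bars in the parthenote channel (50.1 to 58.3) and clear of them in the fertilised channel (116.0 to 153.3).

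Both genes were thus lower in parthenotes on every array and in every probe, in the intron-spanning TAC1 probes partly through surrogates. Ordered by the mean log2 ratio from the lowest, the brightest probes of LOC100008770 and TAC1 stood at places 111 and 126 of 43595, and at places 7 and 10 among the 24136 probes well above background in both channels. These places count overlapping probes of the same genes among those ahead and use the ratio on which the genes were selected, so they are a description only. At these brightest probes the ratio of LOC100008770 was above that of TAC1 by 0.65 on array 1 and below it by 0.39, 0.37 and 0.46 on arrays 2, 3 and 4 on the log2 scale (mean difference -0.14 ± 0.53, SD, n = 4). The means lay further apart under some other processing, at -2.50 for LOC100008770 and -1.49 for TAC1 with normexp and loess, -2.76 and -1.87 after background repair, and -3.06 and -1.78 with median centring. With all probes of a gene averaged the order turned, at -2.91 for LOC100008770 and -3.05 for TAC1, the latter partly through surrogates. The levels of the brightest probes of both genes correlated with r = 0.945 over the 8 channels, which largely restates that both have a low and a high group.

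The genes whose level pattern was most like each of them were found among 6947 other named genes measured in all 8 channels, by Pearson's r of the log2 processed signals. For LOC100008770 they were RNF4 (r = 0.991), FUCA2 (r = 0.982), ZNF454 (r = 0.982), TM6SF1 (r = 0.981) and NT5C3B (r = 0.98). For TAC1 they were NDN (r = 0.996), BTG3 (r = 0.995), EXOSC1 (r = 0.994), SLC4A2 (r = 0.994) and PHKA2 (r = 0.991). The measure does not see the size of a difference. The mean log2 ratio of RNF4 was only -0.36 ± 0.11 and that of NDN -1.44 ± 0.06, against -2.95 and -2.80 for the genes they resembled. An r above 0.9 was reached by 205 genes for LOC100008770 and by 444 for TAC1, and the channels share arrays and dyes, so no probability is attached to it.

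Around these precursors, 63 of the 105 listed genes of peptide making, reception and breakdown had a named probe. Of them 8 were called higher and 4 lower in parthenotes, 19.0% against 23.9% of the brightest probes of all named genes, and the median log2 ratio was 0.14 against 0.00. That share is near the background. It was also unsteady. Leaving out array 1, 2, 3 or 4 left 6, 2, 2 or 0 genes called by limma (the last with 13 at an unadjusted p under 0.05). Of all probes, 5736, 1939, 2636 or 1239 were then called. Some other processing called more, 36 with median centring (25 higher, 11 lower), 33 by the plain ratio of processed signals (26 higher, 7 lower) and 20 after background repair (14 higher, 6 lower). Of all 43595 probes, these settings called 31610, 21399 and 13117. Fewer pathway genes were called with normexp and loess (6 higher, 2 lower), which called 6512 of all probes. An intensity trend with robust estimation called 10 pathway genes, and the methods' t-test 4. Among the other ligands of the calcitonin family, adrenomedullin (ADM), a vasodilator, had a log2 ratio of 0.27 ± 0.15 and was not called (adjusted p = 0.0788). Amylin (IAPP), the peptide of pancreatic beta cells, was called lower (-0.79 ± 0.23, adjusted p = 0.0269), but none of its 10 probes was well above background in any channel, and the value was 0.16 with median centring. The IAPP call was also lost with normexp and loess, after background repair and with the methods' t-test.

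Of the other tachykinin genes, TAC3 had no named probe and was not analysed here. TAC4, which encodes hemokinin, gave processed signals of 393, 3819, 3213 and 2742 in the parthenotes of arrays 1 to 4 and of 759, 584, 585 and 451 in the fertilised embryos. Parthenotes were higher on arrays 2, 3 and 4 and lower on array 1, so that the groups overlapped and the gene was not called (log2 ratio 1.71 ± 1.77, adjusted p = 0.251). As for LOC100008770, the parthenote pool of array 1 was the exception.

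Receptors of both families were mostly beneath detection. The calcitonin receptor CALCR, and TACR1, TACR2 and TACR3, the receptors for substance P, neurokinin A and neurokinin B, were not well above background in any channel of any array. CRCP, an intracellular component of the CGRP receptor, was called higher (log2 ratio 0.21 ± 0.07, adjusted p = 0.0352), although it was -0.07 with median centring. Its call was also lost with normexp and loess (0.10), after background repair (0.12), with the methods' t-test and with channels as separate samples. The CGRP receptor's own subunits CALCRL and RAMP1 had no named probe and were not analysed here. Of 15 genes of receptor signalling, 6.67% were called against 23.9% of all named genes. Only GNAS, the stimulatory G protein subunit, was called, and higher (0.50 ± 0.10, adjusted p = 0.016). With median centring it was instead called lower (-0.28). Of 7 genes that cAMP is known to induce or that end its action, 14.3% were called, namely NR4A2, a transcription factor, which was higher (0.82 ± 0.27, adjusted p = 0.0329), with signal above background in 3 parthenote and 1 fertilised pool. Its value was 0.10 with normexp and loess, where the call was lost, and 0.13 after background repair. The NR4A2 call was also lost with the methods' t-test and with channels as separate samples.

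Of 7 genes of precursor processing 1 was called higher and 1 lower (28.6%), and of 5 genes of peptide breakdown 2 were called higher (40.0%), against 23.9% of all named genes. PCSK6, a proprotein convertase, was lower in parthenotes (log2 ratio -1.29 ± 0.28, adjusted p = 0.0168), and CPD, a carboxypeptidase that trims precursors, was higher (0.87 ± 0.19, adjusted p = 0.017). Both kept their calls under the other scalings, at -0.66 with normexp and loess for PCSK6 and 0.24 with median centring for CPD. PCSK2, a convertase of neuroendocrine granules, was not well above background anywhere, like the granule protein SCG2. None of the 3 granule genes with a probe was called by limma, CADPS alone being under an unadjusted p of 0.05, and SCG3 was at 0.15 ± 0.34. MME, or neprilysin, which degrades substance P, was called higher (0.72 ± 0.28, adjusted p = 0.0428), but its value was 0.02 with median centring and the call was also lost with the methods' t-test and with an intensity trend and robust estimation. ECE1 was called higher too (0.41 ± 0.12, adjusted p = 0.0259), with a value of -0.00215 with median centring and the call lost with normexp and loess, where it was 0.20. Only 1 of the 6 probes of ECE1 was called higher, and the call was also lost with the methods' t-test and with channels as separate samples. ACE, which can also cleave substance P, had the larger mean of 1.3 ± 0.68 and was not called (adjusted p = 0.0734).

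Other peptide precursors were called in both directions. Of 18 with a probe, 2 were called higher, 2 lower and 14 were not called, and the 22.2% called were near the 23.9% of all named genes. These counts use the brightest probe. PENK and GNRH1 were not called by it, but 2 of the 4 probes of PENK and 2 of the 5 of GNRH1 were called lower. NPY, the neuropeptide Y precursor, was higher on all arrays by 2.27, 1.02, 2.78 and 2.36 on the log2 scale (adjusted p = 0.0377) and in all 5 of its probes. Its mean of 2.11 was 1.02 with median centring, and the call was lost with the methods' t-test. All 5 NPY probes were well above background in every parthenote channel, but only 2 of them in every fertilised channel. POMC, the precursor of ACTH and endorphin, was also called higher (0.46 ± 0.14, adjusted p = 0.0298), but was at -0.07 with median centring. The POMC call was also lost with the methods' t-test. AVP, the vasopressin precursor, was lower, with log2 ratios of -1.23, -1.36, -0.97 and -0.87 (adjusted p = 0.0157). The atrial natriuretic peptide gene NPPA was called lower by its brightest probe (-3.70 ± 0.98, n = 3 because a spot marked as an outlier was left out, adjusted p = 0.0496). Its parthenote channel was not well above background on any array, and the bound described for TAC1, which holds for repaired backgrounds only, was at least 2.09-fold. Of its 5 other probes, 4 were not well above background in any channel. The value was -0.74 with normexp and loess and -0.45 with all probes averaged, both without a call, and the call was also lost with the methods' t-test and with an intensity trend and robust estimation.

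**Figure D4:**
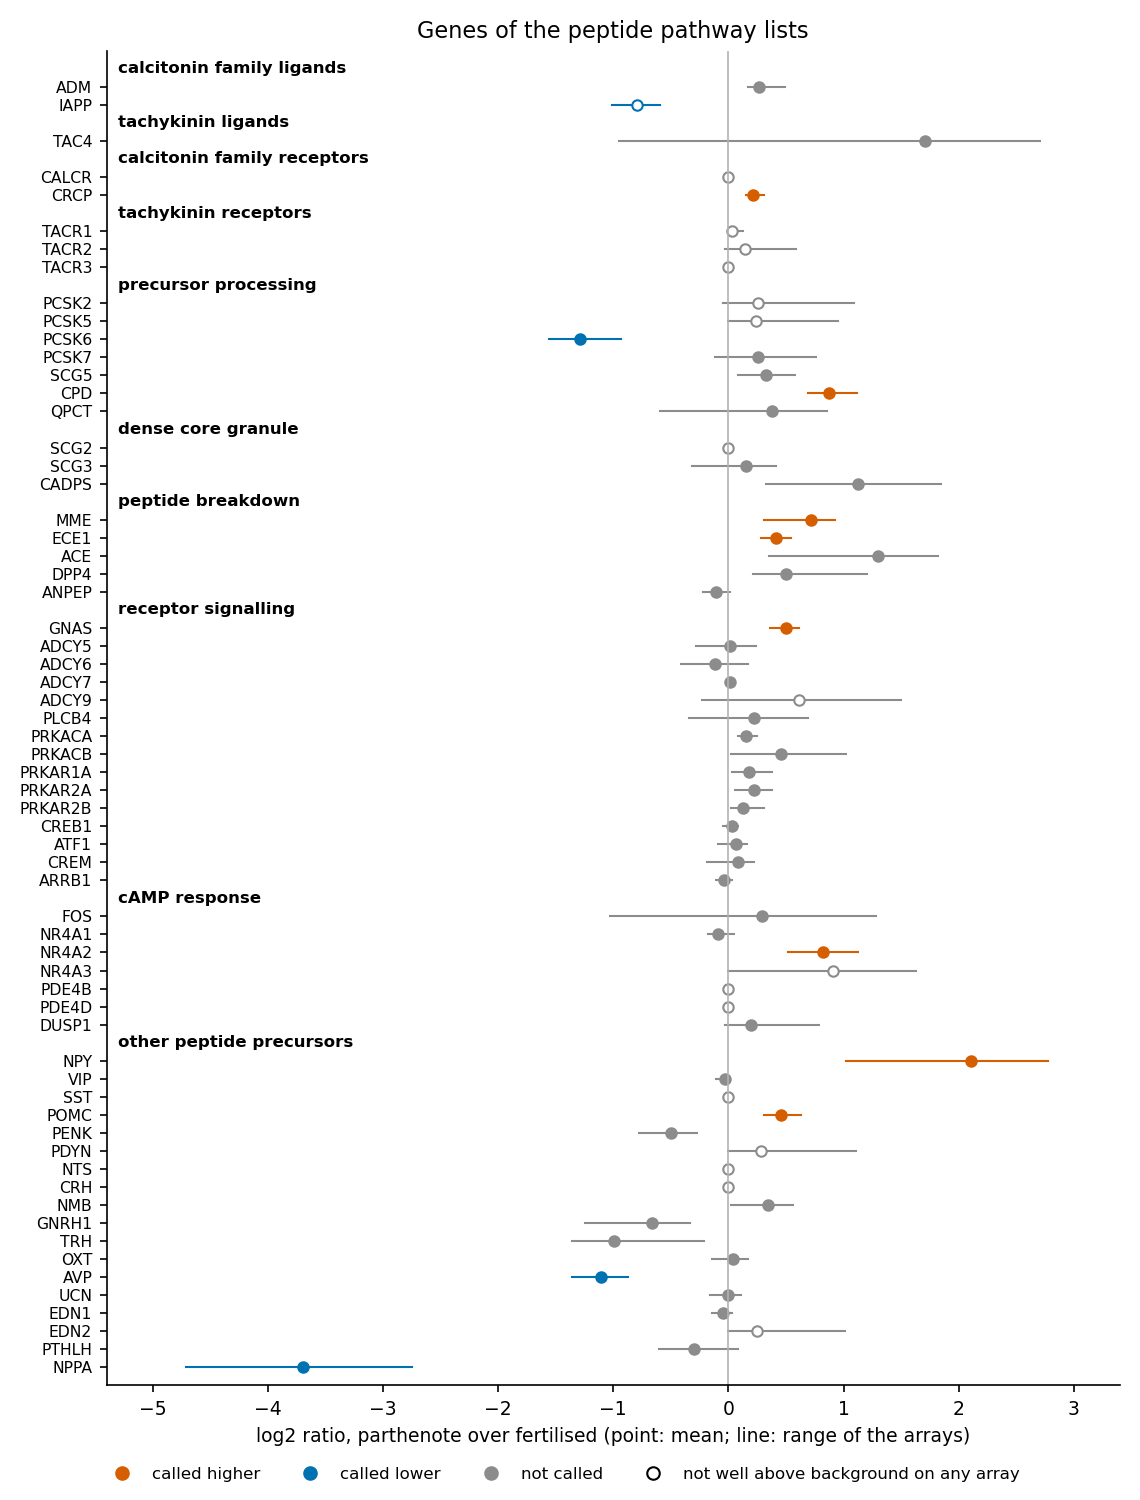
Log2 ratio of parthenote over fertilised (horizontal axis) for the brightest probe of each of the 63 genes with a named probe in the peptide pathway lists, with the mean as a point and the range of the arrays as a line, coloured by the limma call; open points were not well above background on any array. Calls fall on both sides of 0 and most genes are uncalled; with median centring IAPP, CRCP, ECE1, GNAS and POMC change sign.

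The genes beside LOC100008770 and TAC1 on their chromosomes were called about as often as other named genes. By the gene order of the rabbit reference assembly mOryCun1.1, 5 genes with a probe were taken on each side of each gene. Of these 20 neighbours 4 were called, 20.0% against 23.9% of named genes, and their mean log2 ratios lay between -0.75 and 1.18, the upper end being SOX6, which was well above background in only 1 parthenote and 1 fertilised pool. Leaving out array 1, 2, 3 or 4 left 2, 0, 1 or 0 called by limma, with 6 and 4 at an unadjusted p under 0.05 where none was called. With all probes of a gene averaged, 6 neighbours were called, 2 higher and 4 lower, with normexp and loess 2, and with median centring 14, of which 3 were higher and 11 lower. Of all 43595 probes, normexp and loess called 6512 and median centring 31610. Without array 1, 2, 3 or 4, 5736, 1939, 2636 or 1239 of all probes were called. Next to LOC100008770, INSC was lower (-0.75 ± 0.27, adjusted p = 0.0389), but at -0.15 with normexp and loess and -0.11 with median centring the call was lost. It was also lost with the methods' t-test. PSMA1 was called higher (0.31, adjusted p = 0.0142), but lower with median centring (-0.43). RPS13 was called higher by 0.14 (adjusted p = 0.0262), but not with normexp and loess (-0.03) or by the methods' t-test. With median centring RPS13 was called lower (-1.07). PDE3B, which degrades cAMP and cGMP, was at -0.14 and not called (adjusted p = 0.935). Next to TAC1, only MIOS was called by its brightest probe (-0.33, adjusted p = 0.0225, and -0.85 with median centring). The brightest probe of DLX5, a homeobox gene, was at -0.22 and not called (adjusted p = 0.0803), whereas 4 of its 5 probes were called lower. SDHAF3 and LOC100358789, the nearest genes with a named probe on either side, were at -0.07 and -0.19.

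**Figure D5:**
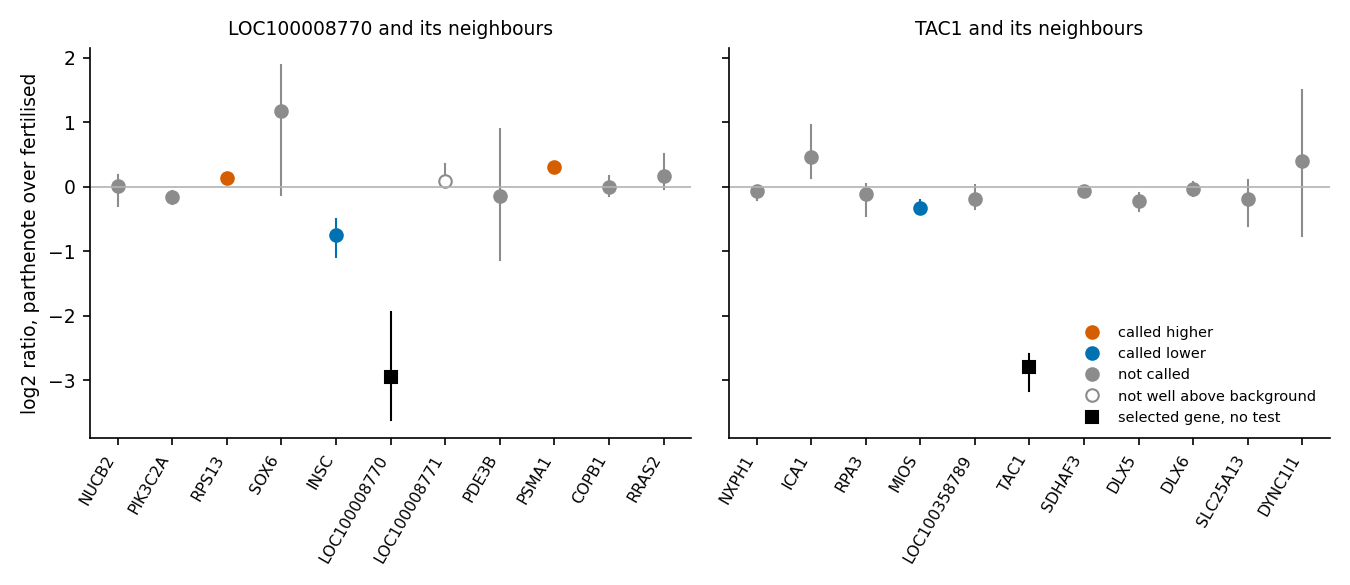
Log2 ratio of parthenote over fertilised for LOC100008770 and TAC1 (black squares, not tested) and the 5 named genes on each side in chromosomal order, with the mean as a point or square and the range of the 4 arrays as a line. The neighbours scatter around 0, from -0.75 to 1.18, with both selected genes far below; the means of RPS13 and PSMA1 change sign with median centring, and that of RPS13 also with normexp and loess.

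Markers of cells that could lie in or on a blastocyst were read beside these genes, and the calls below stand against 23.9% of all named genes called. Marker calls were made with the main processing only and were not checked under the alternatives. Of the labelled tissue, POU5F1 of the epiblast, GATA3 and KRT8 of the trophectoderm and GATA4 of the primitive endoderm were well above background in every channel. Of 4 trophectoderm markers with a probe, KRT8 was called higher in parthenotes and GATA2 lower, of 2 epiblast markers POU5F1 was called higher, and GATA4 was not called. Of 9 neuroendocrine and neuronal markers, 3 had a probe and none was called by its brightest probe, although 1 of the 6 probes of UCHL1 was called lower. The summed processed signal of these 3 markers was 3273, 8121, 6787 and 6005 in parthenotes against 7584, 3761, 3129 and 4919 in fertilised embryos. Most of it was STMN2, a microtubule regulator, and as with TAC4 the pool of array 1 was the lowest among parthenotes. Of 5 uterine and oviductal markers with a probe, OVGP1 (log2 ratio 3.87 ± 0.29), SCGB1A1 (2.75 ± 0.45) and PGR (2.08 ± 0.63) were called higher in parthenotes, PGR being well above background in only 1 fertilised pool and its ratio thus near the floor, while FOXJ1 and ESR1 were not well above background. Summed, this list, led by OVGP1, read 7019, 5838, 25641 and 13315 in parthenotes and 983, 686, 2242 and 947 in fertilised embryos. Of 5 leukocyte markers with a probe, CD48, CD14 and CD68 were called higher and the defining PTPRC and CD3E were not well above background. Their sum, led by CD14, was 390, 397, 435 and 392 in parthenotes and 217, 210, 207 and 203 in fertilised embryos. The part of any of these cells in the levels of LOC100008770 and TAC1 was not tested.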

How the data were processed

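Total RNA of 4 parthenote pools and 4 fertilised pools was measured on 4 rabbit Agilent arrays with 2 colours, read by the authors with Agilent Feature Extraction 10.10.1.1 (per the labels). The deposited intensity of each spot is given uncorrected, as mean and local background, and processed, after background subtraction and dye normalisation, with a surrogate for dim spots. The deposited log10 ratio is processed Cy5 over Cy3. For this work its sign was turned, giving parthenote over fertilised on the log2 scale. The authors' value table holds the same ratio with the sign turned, so its identical results say nothing about stability.

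The 1417 control spots and the 26 to 48 spots marked as outliers per array were left out, and spots of a probe averaged. A probe needed a value on 3 arrays or more. The mean ratio of each was then set against 0 by the two-sided moderated test of limma (version 3.58.1, run under R 4.3.3), and p-values were adjusted by Benjamini-Hochberg across the whole table, calls being those under 0.05. The script was tested on simulated data. The ratio pairs the pools of an array. Precision is limited by there being only 4 arrays.

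Gene symbols were found for 23113 probes, through RefSeq accessions of the assembly mOryCun1.1 (13115), gene identifiers in the array description (9226) or other fields. Genes named in the text are LOC100008770, TAC1, the pathway and marker lists, 5 neighbours on each side, and the 5 genes of highest r for each; the brightest probe was given. Genes, lists and tests were chosen with earlier results of these data known. Sequences were aligned in Biopython 1.88, figures drawn in matplotlib 3.10.9, and tables handled in Python 3.11.15 with pandas 2.3.3. Alternatives were normexp with loess, with repaired backgrounds or with median centring, the plain ratio of processed intensities, the value table, marked spots kept, a dim-probe filter, the methods' t-test with Benjamini-Hochberg adjustment, channels as separate samples, an intensity trend with robust estimation, all probes of a gene averaged, and each array left out.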

Additional observations from a re-analysis of the deposited data

Results flagged for a closer look

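By Dixon's test at the 95% level, 1 of the 50 groups of 4 log2 values examined for LOC100008770, TAC1 and the called genes held an outlying pool. The test weighs a gap against the range of the group, not its size. In the fertilised channel of the intron-spanning TAC1 probe A_04_P004753, the log2 processed signal was 5.57 on array 1 and 5.12 to 5.17 on the other arrays. Chance marks about 1 group in 20, and probes that differ from it by single bases were not marked.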

How the results depend on the processing

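The mean log2 ratio of LOC100008770 stayed within 1 SD of its value under each alternative that changes a mean, at -2.50 with normexp and loess, the furthest, and -3.28 to -2.72 with an array left out. That of TAC1 was -2.87 to -2.69 with an array left out and -3.05 with all probes averaged. It was -1.49 with normexp and loess, -1.87 after background repair and -1.78 with median centring, settings that change background and normalisation together and add an offset. The cause was not tested. Of all probes, 31610 were called with median centring, 21399 by the plain ratio of processed intensities, 4435 by the methods' t-test, 16358 with channels as separate samples (no replicate block) and 1239 to 5736 with an array left out, against 8996. Normexp with loess called 6512, the same with repaired backgrounds 13117, and an intensity trend with robust estimation 7615. The share of calls that were higher in parthenotes was 46.2%, but 65.0% by the plain ratio and 68.0% without the pairing. Of pathway genes, 20 were called after background repair, 36 with median centring, 33 by the plain ratio, 4 by the methods' t-test, 20 without the pairing and 0 to 6 with an array left out, against 12. Normexp with loess called 8 pathway genes, and an intensity trend with robust estimation 10. Of the neighbours, 2 were called with normexp and loess, 14 with median centring, 2 by the methods' t-test and 0 to 2 with an array left out, against 4. By limma, 6 neighbours were under an unadjusted p of 0.05 without array 2 and 4 without array 4. Signs turned with median centring for IAPP (0.16), CRCP (-0.07), ECE1 (-0.00215), GNAS (-0.28), POMC (-0.07), RPS13 (-1.07) and PSMA1 (-0.43). Of these, GNAS, RPS13 and PSMA1 were then called lower. The sign of RPS13 also turned with normexp and loess (-0.03) and after background repair (-0.04). The cause of these turns was not tested. The 16 called pathway genes and neighbours gave 144 results that kept sign and call, 82 that kept the sign only and 9 that turned. Called markers were not among them. Of the 144, 16 came from the authors' value table, which holds the same ratio and says nothing about stability. By the methods' t-test 6 of these 16 genes kept their call and 10 lost it.

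No dye swap was made, the array headers name a single slide, and dim channels limit TAC1, whose intron-spanning probes allow only a bound.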
